A study of Mus musculus with 8 samples.

Results

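The genes described here are 9 that respond to fatty acids or coat lipid droplets, *Plin2*, *Angptl4*, *Pdk4*, *Cpt1a*, *Acot1*, *Acot2*, *Cd36*, *Acadl*, and *Ucp2*. They were chosen by symbol from the 48709 genes listed in each of 8 RNA-Seq libraries of mouse pancreas, and all 9 were found. The pancreata were from male mice, 8 weeks old, of 2 genotypes. WT mice were purchased and are not described as littermates of the mutants. The mutants (cKO) were *Pfkfb3* fl/fl; *Pdx1*-Cre, in which Cre under the *Pdx1* promoter, active in the pancreatic lineage, removes exons 2 and 3 of *Pfkfb3*, an enzyme that raises glycolytic flux. Mice of each genotype received normal saline or palmitoleic acid (POA) with ethanol, a model of severe alcoholic pancreatitis named for fatty acid ethyl esters (FAEE-SAP). Tissue was taken at 24 hours, and 2 libraries were made for each of the 4 groups. According to the methods, mice were fasted before induction, and FAEE-SAP mice also received intraperitoneal saline and buprenorphine, so FAEE-SAP against saline compares the whole procedure. No source names separate mice for the 2 libraries of a group, so the p-values measure the spread between these libraries, which may be technical.

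Long-chain fatty acids enter cells in part through CD36 and are bound to coenzyme A, stored as triglyceride in lipid droplets, or carried into mitochondria by CPT1 for β-oxidation. They also bind the peroxisome proliferator-activated receptors (PPARs), nuclear receptors that pair with RXR on DNA and raise the transcription of genes such as *Plin2*, *Angptl4*, *Pdk4*, *Cpt1a*, and the *Acot* genes. Because POA is itself a fatty acid and acinar cells convert fatty acid and ethanol to fatty acid ethyl esters, these genes give a view of lipid handling in the injured gland.

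Expression was deposited by the authors as RPKM, in which reads per gene are divided by exon length and by the mapped reads of the library. RPKM is thus a share of the library, and in WT the change from saline to FAEE-SAP had a median of 1.24 over all genes (log2) with the values as deposited. Each library was therefore divided by 1 factor, the median of its ratios to the geometric mean over genes above 0 in every library, after which that median was 0.02. Levels below are scaled RPKM with all 8 libraries scaled together. Library totals worked out from the smallest values were 22.8 to 37.7 M reads, so that an RPKM of 0.0133 to 0.0219 corresponded to 1 read for a gene whose exons span 2 kb. The *Plin2* values, the lowest of the 9 in WT saline, rested on about 106 and 183 reads there. *Pfkfb3* was between 0.880 and 2.10 in the saline libraries and between 1.74 and 3.21 with FAEE-SAP. It overlapped between genotypes under both treatments, and a value for the whole gene cannot show the loss of 2 exons, so genotype refers to the labels. All 11 acinar markers were above 0 in every library. Their summed scaled RPKM was 176739 to 242809 in the saline libraries, 57011 to 59108 in WT FAEE-SAP, and 141336 to 157405 in cKO FAEE-SAP. Fewer cells of a type and less RNA per cell cannot be told apart in these bulk samples. In cKO saline replicate 1, *Fabp1* and *Fabp2*, fatty acid-binding proteins of enterocytes, were at 12.7 and 8.89, against at most 0.153 in the other 7 libraries. These 2 genes were chosen after their values were seen.

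In WT mice, FAEE-SAP was accompanied by a rise of *Plin2*, and no other gene of the 9 passed the test. *Plin2* encodes perilipin 2, which coats the lipid droplets of most cell types outside fat. It lies on the minus strand of chromosome 4, from 86648386 to 86670060 (GRCm38). Its scaled RPKM was 1.46 and 2.20 in WT saline and 9.72 and 15.9 in WT FAEE-SAP, or 1.83 ± 0.524 against 12.8 ± 4.34 (SD, n = 2). Both FAEE-SAP libraries were above both saline libraries. The increase was 6.64-fold, with a log2 change of 2.73 (SE 0.318, 95% interval 1.95 to 3.51, adjusted p = 0.0109). All fold changes were fitted to log2(scaled RPKM + 0.1), with the libraries of each comparison scaled together, and are understated where values are low. The p-values are those of limma, adjusted by the Benjamini-Hochberg method for every gene tested. A gene was called where the adjusted p-value was under 0.05 and the change at least 2-fold. By that rule 755 of 10894 genes (6.93%) were called, 335 of them (3.08%) higher. Without WT FAEE-SAP replicate 2, the log2 fold change of *Plin2* was 2.41 and the call was lost (adjusted p = 0.0745, limma). An exact permutation test of 2 libraries against 2 cannot go below p = 0.333 (two-sided) and was not used.

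**Figure D1:**
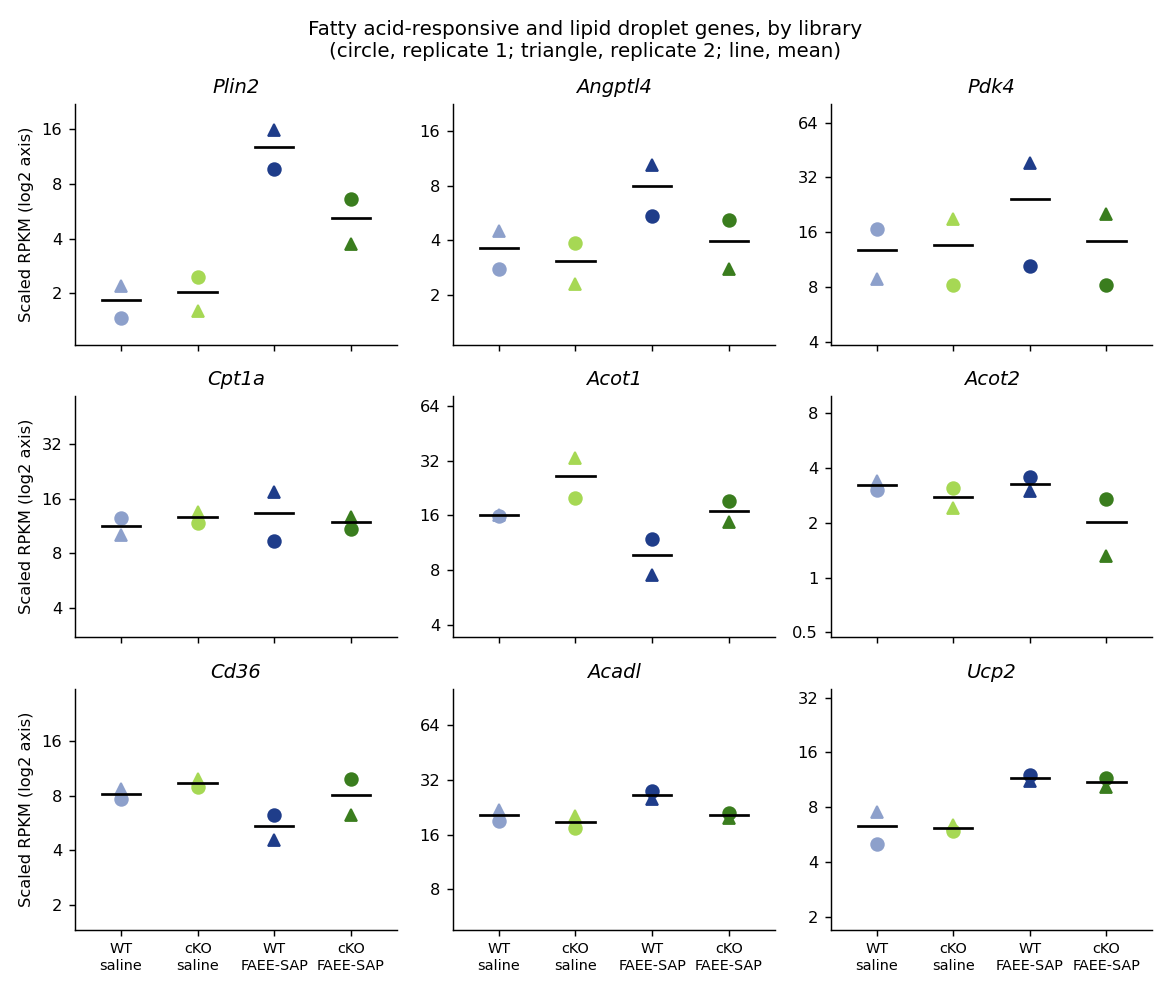
Scaled RPKM of the 9 genes in the 8 libraries, on log2 axes that span the same fold range in every panel. Circles are replicate 1, triangles are replicate 2, and lines are group means. *Plin2* rose from 1.46 and 2.20 in WT saline to 9.72 and 15.9 in WT FAEE-SAP, and *Ucp2* was between 10.4 and 12.1 in all 4 FAEE-SAP libraries against 5.03 to 7.54 in the saline libraries.

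The bases upstream of *Plin2* are shown because it is the only one of the 9 genes called and PPARs are known to act on its promoter. RefSeq promoter windows on GRCm38.p6 were given for 8 of the 9 genes, all but *Angptl4*. The motif AGGTCA, which many nuclear receptors bind, was searched on both strands in the 250 bases before the RefSeq start in that table (TGACCT on the other strand). It was in 3 of the 8 windows, those of *Plin2*, *Cpt1a*, and *Cd36*, and in 4607 of all 32851 windows of that length (14.0%). The PPAR repeat, in which 2 copies of AGGTCA stand 1 base apart, was in 0 of the 8 windows and in 0.0335% of all windows. At so low a share, a count of 0 in 8 windows carries no information. Inexact repeats and bases outside the windows were not searched. These matches are descriptions of the letters, not sites of binding. The *Plin2* sequence covers chr4:86670061-86670309 on the minus strand, 249 bases that end before the annotated gene, with the motif in capitals.
*Plin2* upstream: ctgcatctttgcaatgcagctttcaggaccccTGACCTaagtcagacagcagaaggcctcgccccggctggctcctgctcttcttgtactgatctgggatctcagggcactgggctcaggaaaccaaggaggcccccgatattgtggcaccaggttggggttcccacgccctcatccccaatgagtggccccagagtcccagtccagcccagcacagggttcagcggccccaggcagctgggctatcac
The motifs of *Plin2*, *Cpt1a*, and *Cd36* were 218, 94, and 228 bases before the RefSeq start. The windows of *Cpt1a* (chr19:3323051-3323300) and *Cd36* (chr5:17835897-17836146) lie within the GENCODE spans of these genes given below, so their starts are others than the outermost ones. Each motif is printed with 10 bases on either side, to show how far the flanks differ.
*Plin2* motif: tcaggaccccTGACCTaagtcagaca
*Cpt1a* motif: gtttccttacTGACCTcctccccgca
*Cd36* motif: ctgcactttaTGACCTgagattttca
*Plin2* was called higher in WT FAEE-SAP, and *Cpt1a* and *Cd36*, with the same letters in their windows, were not called in either direction.

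The secreted and mitochondrial regulators that fatty acids induce gave smaller differences in WT. *Angptl4* (chromosome 17, 33773750 to 33781830) encodes a secreted inhibitor of lipoprotein lipase. It was at 2.78 and 4.50 in WT saline and 5.42 and 10.5 in WT FAEE-SAP, without overlap. Its log2 fold change was 1.07 (SE 0.381, adjusted p = 0.143, limma), which did not pass. *Pdk4* (chromosome 6, 5483351 to 5496309), a kinase that switches off pyruvate dehydrogenase and so spares glucose, was at 16.7 and 8.81 in WT saline and 10.4 and 38.2 in WT FAEE-SAP. The FAEE-SAP libraries lay on either side of one saline library, and the log2 fold change was 0.71 (SE 0.633, adjusted p = 0.524, limma). It was -0.18 without WT FAEE-SAP replicate 2 and 1.68 without WT FAEE-SAP replicate 1, so 1 library set its direction. *Cpt1a* (chromosome 19, 3322334 to 3385733), the outer membrane carnitine palmitoyltransferase that admits fatty acids to mitochondria, was at 12.4 and 10.04 in WT saline and 9.34 and 17.3 in WT FAEE-SAP, also with overlap (log2 change 0.18, SE 0.321, and -0.22 and 0.67 without the same libraries).

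*Ucp2* and *Acadl* were higher in both WT FAEE-SAP libraries than in both saline libraries without passing the test. *Ucp2* (chromosome 7, 100493337 to 100502020), a carrier of the inner mitochondrial membrane, was at 5.03 and 7.54 in WT saline and 12.1 and 11.1 in WT FAEE-SAP. The log2 fold change was 0.90 (SE 0.239, adjusted p = 0.0776, limma). Of the exonic bases of *Ucp2*, 4.36% are shared with *Dnajb13* on the opposite strand, and whether counting used strand is not given in the sources used here. *Acadl* (chromosome 1, 66830839 to 66863277), a dehydrogenase for the first step of long-chain β-oxidation, was at 19.1 and 21.8 in saline and 27.8 and 25.1 in FAEE-SAP. Its log2 fold change was 0.36 (SE 0.169, adjusted p = 0.229, limma), the smallest difference among the genes whose WT groups did not overlap.

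*Acot1* and *Cd36* were lower in both WT FAEE-SAP libraries. *Acot1* (chromosome 12, 84009490 to 84018371) encodes a cytosolic thioesterase that frees fatty acids from coenzyme A. It was at 15.8 and 16.1 in WT saline and 11.8 and 7.49 in WT FAEE-SAP, with a log2 change of -0.76 (SE 0.251, adjusted p = 0.119, limma). *Cd36* (chromosome 5, 17781690 to 17888801), a fatty acid receptor and transporter at the cell surface, was at 7.62 and 8.73 in saline and 6.27 and 4.58 in FAEE-SAP (log2 change -0.60, SE 0.223). *Acot2* (chromosome 12, 83987861 to 83993873), the mitochondrial counterpart of *Acot1*, was at 3.02 and 3.41 in saline and 3.55 and 3.004 in FAEE-SAP, a log2 fold change of 0.02 (95% interval -0.49 to 0.53). In all, 6 of the 9 genes had WT groups without overlap, as did 58.8% of all genes tested. Of the 9, 4 were higher (29.7% of all genes) and 2 lower (29.1%). The median log2 fold change of the 9 genes was 0.36.

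*Acot1* and *Acot2* are neighbors and near copies, so reads could be split between them by the counting. Their coding sequences in GENCODE vM21, of 1257 and 1359 bases, were 95.6% identical over 1236 aligned bases, and 31.0% of the 100-base windows of *Acot1* were present unchanged in *Acot2*. The longest run found in both is printed because a read that falls within it cannot, taken alone, be assigned to either gene. Reads were paired, so a mate outside the run could place some of them, and how they were counted is not given in the sources used here. The run has 273 bases, at coding positions 887 to 1159 of *Acot1* and 1010 to 1282 of *Acot2*, counted from 1 at the start codon.
*Acot1* and *Acot2* shared run: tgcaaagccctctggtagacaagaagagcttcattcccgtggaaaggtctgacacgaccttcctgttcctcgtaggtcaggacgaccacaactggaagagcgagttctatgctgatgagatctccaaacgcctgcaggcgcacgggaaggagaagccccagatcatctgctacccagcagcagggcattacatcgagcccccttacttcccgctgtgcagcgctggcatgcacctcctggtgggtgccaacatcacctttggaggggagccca
The values of both genes are uncertain to that extent in every comparison.

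In cKO mice, 0 of the 9 genes passed the test between FAEE-SAP and saline, where limma called 5 of 9423 genes (0.0531%) and 888 had an unadjusted p-value under 0.05. *Plin2* was at 2.47 and 1.61 in cKO saline and 6.62 and 3.74 in cKO FAEE-SAP, without overlap. The log2 fold change was 1.30 (SE 0.373, 95% interval 0.32 to 2.27, adjusted p = 0.443, limma), and it was 1.60 without cKO saline replicate 1. *Ucp2* was at 5.90 and 6.41 in cKO saline and 11.6 and 10.4 in cKO FAEE-SAP, a log2 change of 0.85 (SE 0.180, adjusted p = 0.356, limma). *Acot1*, at 19.8 and 33.0 in cKO saline and 19.1 and 14.8 in cKO FAEE-SAP, was lower without overlap (log2 change -0.57, SE 0.316). The other 6 genes overlapped between treatments. *Angptl4* was at 3.87 and 2.32 in saline and 5.15 and 2.78 in FAEE-SAP, and *Pdk4* at 8.23 and 18.9 in saline and 8.22 and 20.2 in FAEE-SAP. *Cpt1a* stayed between 10.9 and 13.5 in the 4 cKO libraries, *Acadl* between 17.5 and 20.9, and *Cd36* between 6.28 and 9.87. *Acot2* ranged from 1.31, the lower cKO FAEE-SAP library, to 3.11. Groups did not overlap for 3 of the 9 genes, 2 higher and 1 lower, against 43.2% of all genes tested (19.6% higher and 23.6% lower). Without cKO saline replicate 1, 0 of the 9 genes were called, the log2 fold change was 0.80 for *Ucp2* and -0.93 for *Acot1*, and that of *Pdk4* turned from 0.08 to -0.51.

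**Figure D2:**
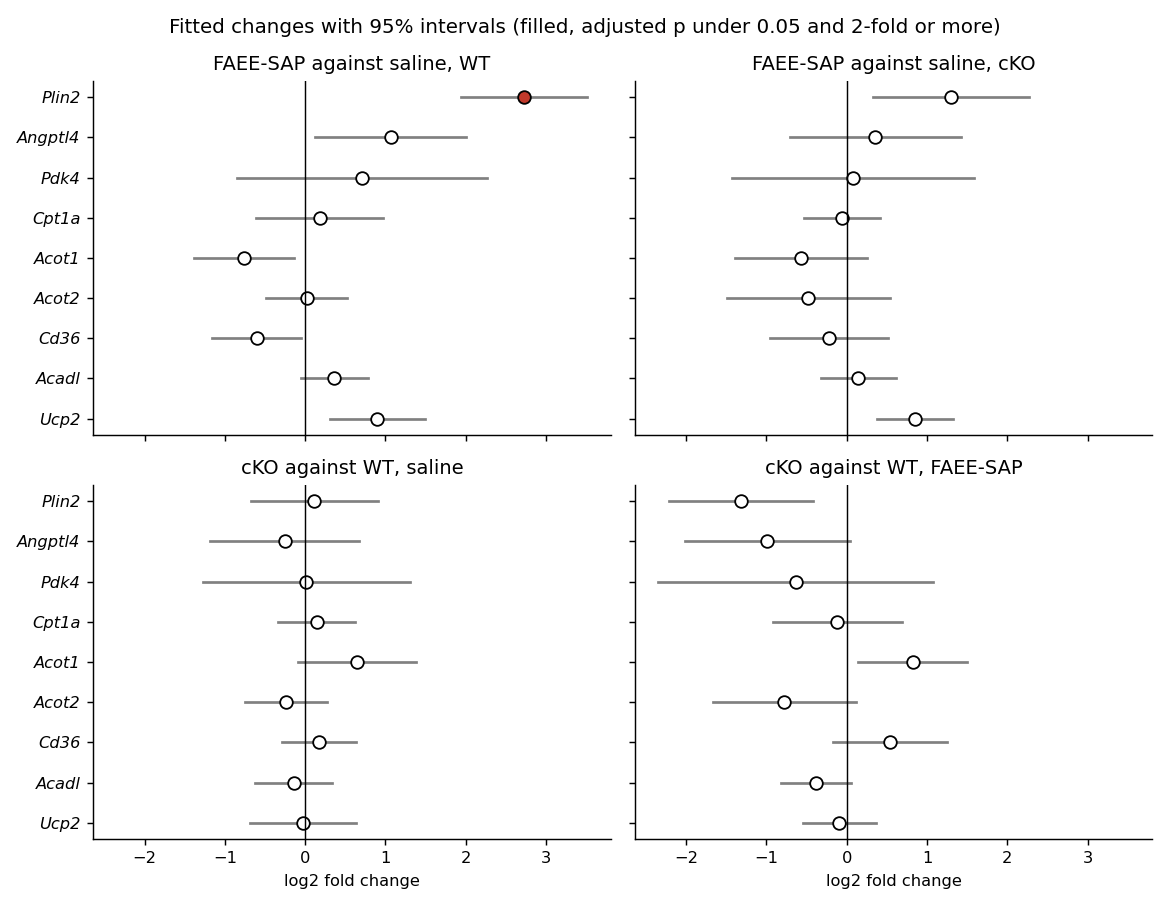
Fitted log2 fold changes of the 9 genes in 4 comparisons, with 95% intervals from limma. Filled points passed the threshold (adjusted p under 0.05 and at least 2-fold), which only *Plin2* in WT FAEE-SAP against saline did, at 2.73. The *Plin2* point was at 1.30 in cKO and at -1.32 for cKO against WT with FAEE-SAP.

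Between genotypes with FAEE-SAP, *Plin2* was lower in both cKO libraries, at 6.62 and 3.74 against 9.72 and 15.9 in WT. The log2 fold change was -1.32 (SE 0.363, 95% interval -2.21 to -0.42). Its unadjusted p-value from limma was 0.0114 and its adjusted p-value was 0.150, so it did not pass. The paper's own list of genes that differ in cKO mice, from the authors' processing and thresholds, includes *Plin2*. That list also names *Scd2*, a gene of the lists below that was not called between genotypes here. *Angptl4* was at 5.15 and 2.78 in cKO and 5.42 and 10.5 in WT, a log2 change of -0.99 (SE 0.419, adjusted p = 0.272, limma), with 5.15 and 5.42 close together. *Acot1* was higher in cKO, at 19.1 and 14.8 against 11.8 and 7.49 (log2 change 0.82, SE 0.276, adjusted p = 0.196, limma), and *Cd36* likewise, at 9.86 and 6.28 against 6.27 and 4.58, where the nearest libraries almost met. *Acot2* and *Acadl* were lower in cKO, with log2 fold changes of -0.78 and -0.38. *Ucp2* had a log2 fold change of -0.09 (95% interval -0.55 to 0.37), *Cpt1a* of -0.12, and *Pdk4* of -0.64 with an interval of -2.35 to 1.07, which leaves room for a large difference either way. By limma, 0 of the 9 genes were called, where 140 of 11008 genes (1.27%) were called and 2148 had an unadjusted p-value under 0.05. Groups did not overlap for 6 of the 9 genes, 2 higher and 4 lower in cKO, against 51.9% of all genes tested (26.5% higher and 25.3% lower).

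With saline, 0 of the 9 genes differed between genotypes by the test, and limma called 0 of 8715 genes (0%), with 187 at an unadjusted p-value under 0.05. Without cKO saline replicate 1, 0 of the 9 genes were called as well, and the log2 fold changes were -0.17 for *Plin2* and 1.01 for *Acot1*. With all libraries, *Acot1* was at 19.8 and 33.0 in cKO and 15.8 and 16.1 in WT, a log2 change of 0.65 (SE 0.281, adjusted p = 0.999, limma). *Plin2* had a log2 fold change of 0.12 (95% interval -0.68 to 0.91). Groups did not overlap for *Acot1* and *Cd36* alone, 2 of the 9 genes, both higher in cKO, against 28.3% of all genes tested (16.3% higher and 12% lower).

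The interaction, the response to FAEE-SAP in cKO minus that in WT, was tested in 1 model of all 8 libraries. For *Plin2* it was -1.45 on the log2 scale (SE 0.539, 95% interval -2.71 to -0.18). Its unadjusted p-value from limma was 0.0302 and the adjusted p-value was 0.350, so a smaller rise in cKO was not established. The other 8 genes had interactions from -0.74 for *Angptl4* to 0.35 for *Cd36*, each with an interval that included 0. Without cKO saline replicate 1 the interaction of *Plin2* was -1.16, and those of the other 8 ranged from -1.27 for *Pdk4* to 0.26 for *Cd36*. Of 11133 genes, 8 (0.0719%) were called by limma and 1398 had an unadjusted p-value under 0.05, with 0 of the 9 genes among those called. Had the threshold been an unadjusted p-value under 0.05 with at least 2-fold, 2 of the 9 genes would have passed in WT FAEE-SAP, *Plin2* and *Angptl4* (12.4% of all genes), and *Plin2* alone in cKO FAEE-SAP (2.97%), between genotypes with FAEE-SAP (8.39%), and in the interaction (7.02%), with 0 in saline (0.677%).

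Per length, *Plin2* had the lowest mean of the 9 genes in both saline groups and stood higher in the order with FAEE-SAP. In WT saline, *Acadl* was highest at 20.4, followed by *Acot1* at 15.96, *Pdk4* at 12.8, *Cpt1a* at 11.2, *Cd36* at 8.17, *Ucp2* at 6.29, *Angptl4* at 3.64, *Acot2* at 3.21, and *Plin2* at 1.83 (means of scaled RPKM). *Acot1* and *Pdk4*, *Pdk4* and *Cpt1a*, and *Angptl4* and *Acot2* overlapped over the libraries, and the other neighbors in that order were apart. In WT FAEE-SAP, *Plin2* was at 12.8, above 5 of the others, in a run of overlapping neighbors from *Acadl* at 26.4 down to *Cd36* at 5.43, and *Acot2* was last at 3.28. In cKO FAEE-SAP, *Plin2* was at 5.18, overlapping *Cd36* at 8.07 and *Angptl4* at 3.97. In cKO saline the means ran from 26.4 for *Acot1* to 2.04 for *Plin2*, which overlapped *Acot2*.

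Scaling divides each library by 1 factor, so it shifts the fold changes of all genes by about the same amount, and a small change can turn its sign by that shift alone. With the values as deposited, in which the median of all genes tested shifted by 1.24, 7 of the 9 genes were called higher in WT FAEE-SAP, where 65.9% of all genes were called higher. Those 7 were the genes other than *Acot1* and *Cd36*, whose log2 fold changes turned from -0.76 to 0.55 and from -0.60 to 0.70. *Plin2* then had a log2 fold change of 4.01 and *Angptl4* of 2.36, both above the median of all genes, and *Cpt1a* and *Acot2*, at 1.49 and 1.31, were near it. Between genotypes with FAEE-SAP, the median of all genes as deposited was -0.91, and 6 of the 9 genes were called lower, where 39.6% of all genes were. *Acot1* and *Cd36* turned from 0.82 to -0.13 and from 0.54 to -0.41.

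**Figure D3:**
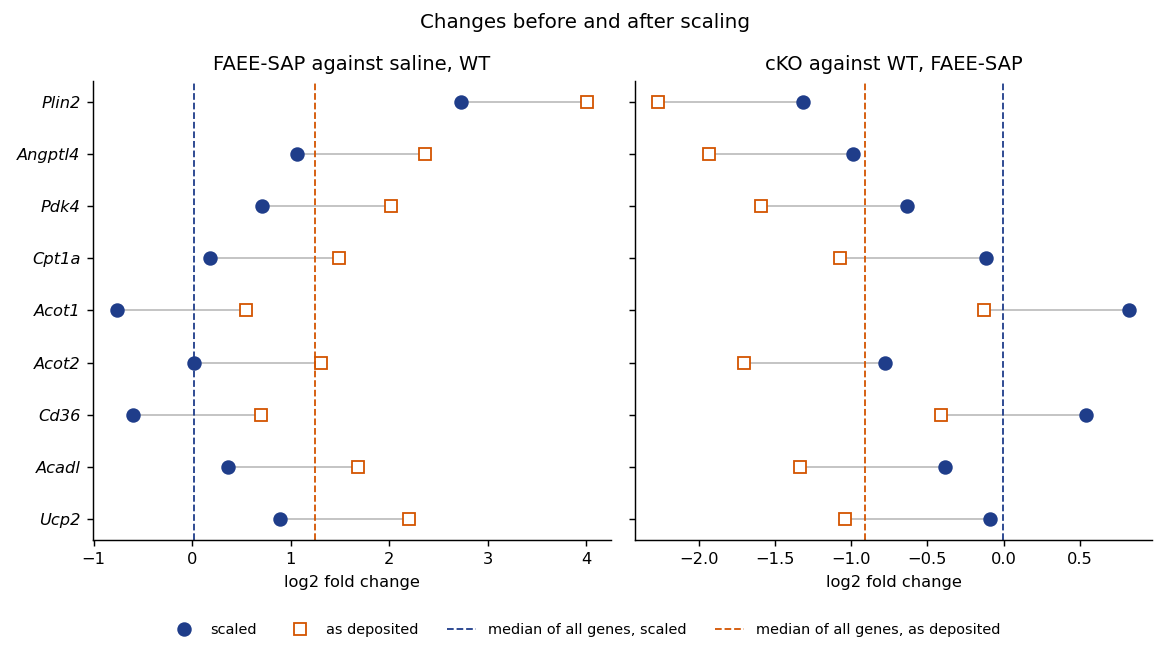
Log2 fold changes of the 9 genes with scaled values (circles) and with the values as deposited (squares), for FAEE-SAP against saline in WT and for cKO against WT with FAEE-SAP. Dashed lines are the medians of all genes tested on each scale, at 0.02 and 1.24 in the first panel and -0.01 and -0.91 in the second, and each gene moves with its median.

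Other genes of fatty acid metabolism were taken from 6 lists. Among genes of fatty acid oxidation, 6 of 20 tested were called lower in WT FAEE-SAP and 0 higher, against 3.86% of all genes called lower, and the list median was -0.86 against 0.02 for all genes. *Acadm*, the medium-chain acyl-CoA dehydrogenase, was at 11.999 and 8.67 in WT saline and 2.74 and 1.77 in WT FAEE-SAP (log2 change -2.18, SE 0.290, adjusted p = 0.0153, limma). *Acaa2*, the mitochondrial 3-ketoacyl-CoA thiolase, was at 24.8 and 27.0 in saline and 7.10 and 4.91 in FAEE-SAP (log2 change -2.12, SE 0.226, adjusted p = 0.00853, limma). *Eci1*, an enoyl-CoA isomerase, and *Etfa*, a subunit of the flavoprotein that takes electrons from the dehydrogenases, fell by 1.79 and 1.48 on the log2 scale. *Acadsb* and *Acadvl*, named after their values were seen, completed the 6. In all 6 genes both WT FAEE-SAP libraries were below both saline libraries. *Acadl*, of the same dehydrogenase family as *Acadm* and *Acadvl*, stood at 0.36. The count of 6 was 1 without WT saline replicate 1, 3 without WT FAEE-SAP replicate 1, and 0 without WT FAEE-SAP replicate 2 or with the values as deposited. In cKO FAEE-SAP against saline, 0 of 20 were called and the median was -0.37 (-0.24 without cKO saline replicate 1), and *Acadm* was at 7.87 and 11.01 in saline and 5.98 and 6.83 in FAEE-SAP.

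Among genes of the lipid droplet and of triglyceride synthesis and lipolysis, 2 of 21 tested were called higher in WT FAEE-SAP (3.08% of all genes) and 0 lower (3.86%), with a median of 0.30. *Dgat2*, which adds the last acyl chain of triglyceride, was at 0.283 and 0.452 in WT saline and 2.30 and 2.44 in WT FAEE-SAP, a log2 change of 2.47 (SE 0.273, adjusted p = 0.00959, limma). It was under the minimum of 0.5 RPKM, which was set on values as deposited, in both WT saline libraries (0.206 and 0.392 as deposited) and was tested only because of its FAEE-SAP values, so its call is a description only. *Pnpla2*, the lipase that opens triglyceride breakdown on the droplet, was at 9.36 and 6.10 in saline and 21.1 and 46.9 in FAEE-SAP (log2 change 2.04, SE 0.415, adjusted p = 0.0437, limma). In cKO FAEE-SAP, *Dgat2* was at 0.764 and 0.226 against 0.747 and 0.202 in cKO saline, and was not tested, since only 1 of these 4 libraries reached the minimum as deposited (0.799). *Pnpla2* was at 7.83 and 18.3 against 5.61 and 11.5, a log2 fold change of 0.60 that was 0.09 without cKO saline replicate 1. The count of 2 in WT was 1 without WT saline replicate 1 and 0 without WT FAEE-SAP replicate 2.

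The receptors themselves were at low to moderate levels. *Ppara* was at 1.02 and 0.341 in WT saline and 0.185 and 0.202 in WT FAEE-SAP, too low to be tested there. *Pparg* was between 0.162 and 0.617 in the 8 libraries and *Ppard* between 1.74 and 3.14. *Rxra*, the partner, was between 4.70 and 11.4. Log2 fold changes in WT FAEE-SAP were 0.51 for *Ppard*, 0.20 for *Pparg*, and 0.54 for *Rxra*, and limma gave adjusted p-values of 0.223 to 0.679. *Pparg* was under the minimum of 0.5 RPKM as deposited in both WT saline libraries (0.286 and 0.458). It was tested only because of its FAEE-SAP values, so its change is a description only. Of 13 receptors, partners, and other known targets tested, 1 was called lower and 0 higher in WT FAEE-SAP, where 3.86% of all genes were called lower and 3.08% higher. This was *Ehhadh*, a peroxisomal β-oxidation enzyme, at 6.54 and 8.78 in saline and 2.66 and 2.40 in FAEE-SAP (log2 change -1.56, SE 0.221, adjusted p = 0.0182, limma). It is a known PPARα target, as is *Plin2*, and the part of PPARs in either change was not tested. The call was lost when WT saline replicate 2 or either WT FAEE-SAP library was dropped.

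Of 12 genes tested for fatty acid uptake, binding, and activation, 1 was called higher (3.08% of all genes) and 1 lower (3.86%) in WT FAEE-SAP. *Lpl*, lipoprotein lipase, the enzyme that ANGPTL4 inhibits, was at 13.9 and 11.6 in WT saline and 2.28 and 3.03 in WT FAEE-SAP, a log2 change of -2.25 (SE 0.226, adjusted p = 0.00721, limma). It was at 8.61 and 10.3 in cKO FAEE-SAP and was called higher there than in WT, at a log2 change of 1.80 (SE 0.241, adjusted p = 0.0387, limma), the only call of the 6 lists between genotypes, where 0.863% of all genes were called higher. That call was lost when any 1 of the 4 FAEE-SAP libraries was left out. *Fabp4*, a fatty acid carrier of adipocytes and macrophages, was at 19.9 and 28.3 in WT saline and 48.9 and 62.8 in WT FAEE-SAP (log2 fold change 1.21), a call lost when WT saline replicate 1 or either WT FAEE-SAP library was dropped. For synthesis and desaturation, 2 of 14 genes tested were called lower in WT FAEE-SAP (3.86% of all genes), the desaturases *Fads2* and *Scd2*, with log2 fold changes of -1.53 and -1.33, both lost when either WT saline library or WT FAEE-SAP replicate 2 was dropped. Of 13 close family members of the 9 genes, such as other pyruvate dehydrogenase kinases and thioesterases, 0 were called by limma. At an unadjusted p-value under 0.05 from limma there were 2 of the 13, and 3013 of all 10894 genes tested. *Angptl7*, *Pdp1*, *Pdp2*, and *Acot8* among the 13 passed the RPKM minimum only through the FAEE-SAP libraries. In cKO FAEE-SAP against saline and in cKO against WT with saline, 0 genes of the 6 lists were called. At an unadjusted p-value under 0.05 from limma, each list had 0 to 4 genes in the first comparison, where 888 of all 9423 genes passed. The 4 were among 13 genes tested for synthesis and desaturation. In the second comparison each list had 0 to 1, where 187 of all 8715 genes passed.

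**Figure D4:**
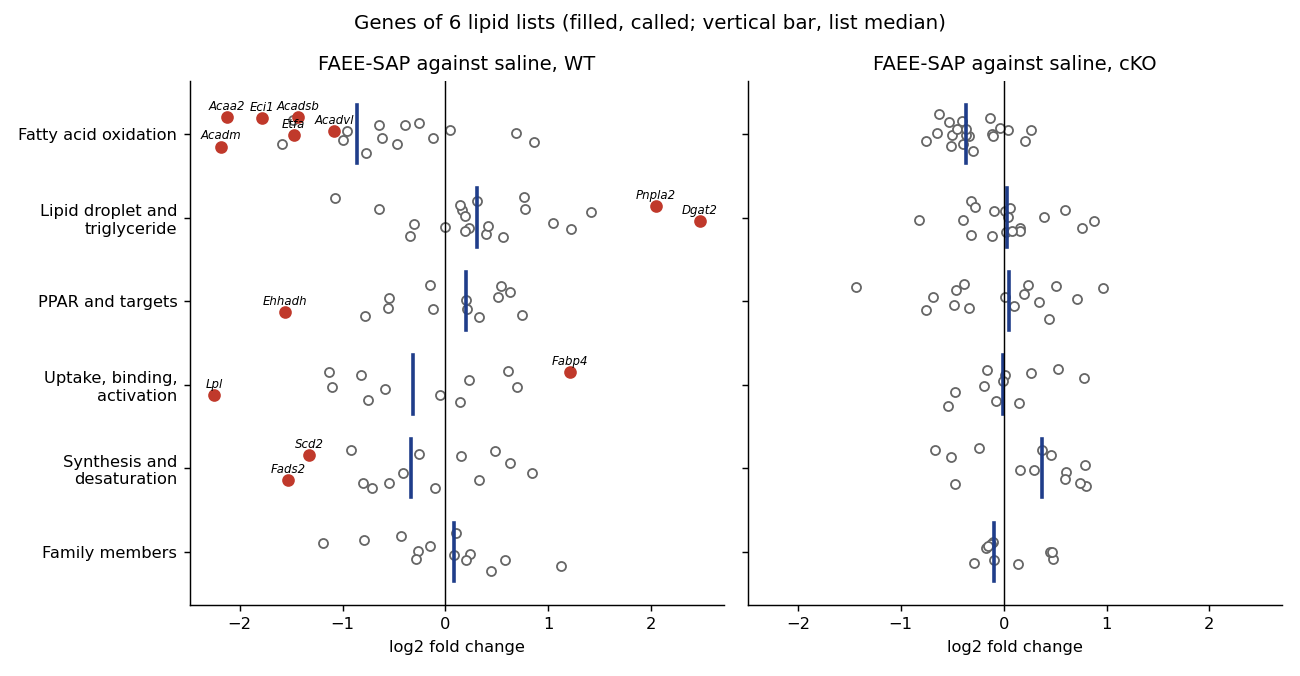
Log2 fold changes of the genes tested in 6 lipid lists, with FAEE-SAP against saline in WT (left) and in cKO (right). Each point is a gene, filled where it was called, and bars are list medians. In WT the oxidation list has its median at -0.86 and 6 genes called lower, and *Dgat2* and *Pnpla2* stand to the right at 2.47 and 2.04, while no point is filled in cKO.

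Markers of other cell types moved with the groups. In WT FAEE-SAP, 10 of 11 acinar markers were called lower (3.86% of all genes), but 3 with the values as deposited or with no RPKM minimum and 4 after quantile normalization. Between genotypes with FAEE-SAP, 6 acinar markers were called higher in cKO (0.863% of all genes), but 0 when either WT library was dropped, 1 without cKO FAEE-SAP replicate 2, and 1 with the values as deposited. Neutrophil markers are given by their levels alone, since 6 of the 8 passed the RPKM minimum in WT only through the FAEE-SAP libraries. The summed scaled RPKM of the 8 neutrophil markers was 1.51 to 2.62 in WT saline and 55.9 to 60.9 in WT FAEE-SAP. In cKO it was 1.58 to 4.10 with saline and 13.1 to 20.7 with FAEE-SAP. *Ly6g*, a defining marker, was at 0 in all 4 saline libraries and at most 0.0670 elsewhere. *Plin2* and the neutrophil sum had the same order of groups with FAEE-SAP, and the part of neutrophils in the *Plin2* result was not tested. The summed level of 10 macrophage markers was 79.2 to 97.5 in WT saline and 87.9 to 116 in WT FAEE-SAP. In cKO it was 91.5 to 94.5 with saline and 118 to 135 with FAEE-SAP, above WT FAEE-SAP. *Plin2* was lower in cKO than in WT FAEE-SAP, and the part of macrophages in its result was not tested. *Lyz2* was the largest part of each macrophage sum, from 38.1 to 60.4 over the libraries. In WT FAEE-SAP against saline, 5 of the 10 had positive and 5 negative log2 fold changes, with a median of 0.04. The 2 called higher (3.08% of all genes) were *Cd14*, at 3.39, and *Fcgr1*, at 2.19, which passed the RPKM minimum only through the FAEE-SAP libraries. Between genotypes with FAEE-SAP, 7 of the 10 were positive in cKO against WT, with a median of 0.55 and 0 called higher. *Cd14* alone was called lower, at -2.37, where 45 of all 11008 genes were called lower, and it was not called when either WT library was dropped. The summed level of 7 islet markers was 285 to 339 in WT saline and 181 to 239 in WT FAEE-SAP, and 302 to 372 and 428 to 450 in cKO. Of these, 2 were called lower in WT FAEE-SAP (3.86% of all genes) and 3 higher in cKO than in WT with FAEE-SAP (0.863%), but 0 of these 3 without either WT library or cKO FAEE-SAP replicate 2. The sum of 6 duct markers was 19.8 to 26.1 in WT saline and 55.9 to 59.0 in WT FAEE-SAP. In cKO it was 11.8 to 32.1 with saline and 44.2 to 46.6 with FAEE-SAP.

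Adipocyte markers bear on *Plin2*, *Angptl4*, *Cd36*, and *Fabp4*, all of which fat expresses. *Fabp4* was called higher in WT FAEE-SAP, and so was *Retn*, which passed the RPKM minimum only through the FAEE-SAP libraries. The call of *Fabp4* was lost without WT saline replicate 1 or either WT FAEE-SAP library, and that of *Retn* without either WT saline library. The summed level of the 9 markers was 36.5 and 67.3 in WT saline and 82.3 and 114 in WT FAEE-SAP. In cKO it was 65.4 and 37.5 with saline and 92.8 and 24.4 with FAEE-SAP. Most of the sum came from *Fabp4*, at 19.9 and 28.3 in WT saline and 48.9 and 62.8 in WT FAEE-SAP, and *Cfd*, a serine protease secreted by adipocytes, at 10.8 and 24.4 and at 25.8 and 39.1. Of the 8 markers tested in WT, *Retn* included, 6 had positive and 2 negative log2 fold changes, with a median of 0.63. *Pck1*, an enzyme of gluconeogenesis and of glycerol formation in fat, was at the low end, at 0.748 and 4.42 in WT saline and 0.327 and 0.980 in WT FAEE-SAP, with overlap (log2 change -1.56, SE 0.849). In cKO, 2 of the 6 tested were positive and 4 negative, with a median of -0.22. *Adipoq*, the defining adipocyte hormone, was at 0.946 and 3.09 in WT saline and 1.20 and 2.31 in WT FAEE-SAP (log2 fold change -0.05), with overlap. *Lep* was at 0 in 4 libraries and at most 0.153 in the others. Within each of the 4 groups, the library with the higher adipocyte sum was also the one with more *Plin2* and more *Angptl4*. This was seen after the values were known, and the summed duct cell markers gave the same order, among 8 marker lists compared. In cKO FAEE-SAP, where the adipocyte sums were 92.8 and 24.4, *Plin2* was at 6.62 and 3.74, both above all 4 saline libraries. Summed endothelial markers were between 15.4 and 24.9 and, as with *Cd36*, *Acot1*, *Acadl*, and *Ucp2*, the same library was the higher one in each of the 4 groups, which also held for the summed muscle markers. The part of these cell types in the results was not tested.

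**Figure D5:**
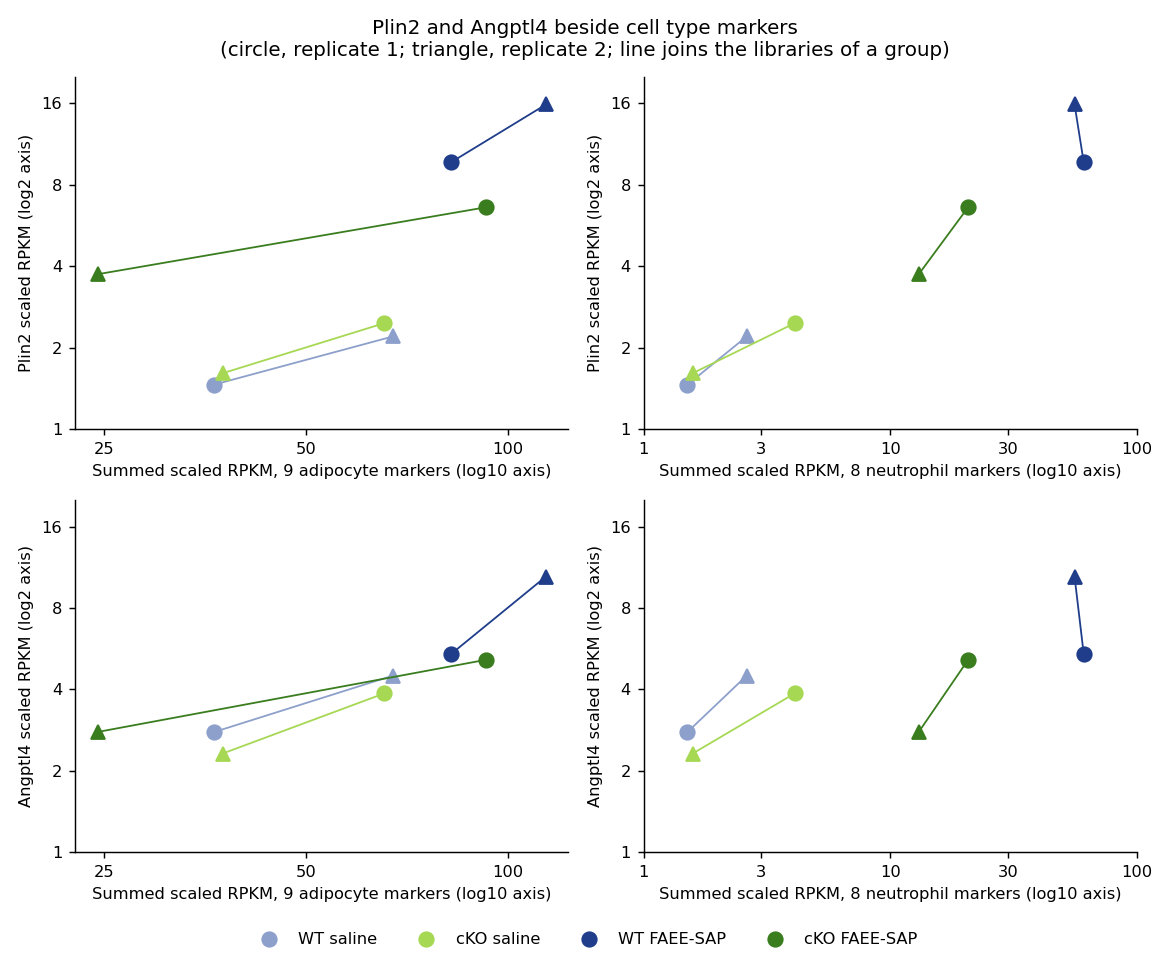
Scaled RPKM of *Plin2* (top) and *Angptl4* (bottom) in each library against the summed scaled RPKM of 9 adipocyte markers (left) and 8 neutrophil markers (right), all axes logarithmic. Circles are replicate 1, triangles are replicate 2, and lines join the libraries of a group. In WT FAEE-SAP, *Plin2* was at 9.72 and 15.9 at adipocyte sums of 82.3 and 114. In cKO FAEE-SAP it was at 6.62 and 3.74 at sums of 92.8 and 24.4. The WT FAEE-SAP libraries lie at neutrophil sums of 55.9 to 60.9.

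The genes whose pattern over the 8 libraries was closest to those of *Plin2*, *Angptl4*, and *Pdk4* were found as a description, by the root mean square difference of mean-centered log2 values among 11133 genes. For *Plin2* they were *Ctla2b* (0.21), *Stfa2l1* (0.29), and *Mmp9* (0.30), of which *Mmp9* is a protease abundant in neutrophils and was one of the neutrophil markers. *Stfa2l1* was listed at 0 in all 4 saline libraries and reached the minimum of 0.5 RPKM as deposited only in WT FAEE-SAP. *Ctla2b* and *Mmp9* were under that minimum in all 4 saline libraries. The filter thus had a part in which genes could be found, and the likeness is no support for a link. For *Angptl4* they were *Ddit3* (0.18), *Calr* (0.18), and *Pdia4* (0.22), which encode a stress-induced transcription factor and chaperones of the endoplasmic reticulum. For *Pdk4* they were *Angptl7* (0.18), *Ripk4* (0.23), and *Txnip* (0.23), the last an inhibitor of glucose uptake. *Angptl7* was under the same minimum in all 4 saline libraries. *Txnip* was at 75.9 and 48.0 in WT saline and 74.8 and 203 in WT FAEE-SAP, with the same library the higher one as for *Pdk4* in both groups. Among the other 8 genes, *Angptl4* was nearest to *Plin2*, at rank 196, and *Ucp2* next at rank 400.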

How the data were processed

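Pancreas RNA-Seq libraries, 2 for each of 4 groups, were assigned by their labels. Per the methods, a directional kit and paired-end sequencing were used, reads were filtered with fastp and mapped to Ensembl GRCm38.p6 with CLC Genomics Workbench, and how expression values were computed is not given in the sources used here. The authors deposited RPKM (no counts), 1 value per gene and library. Library totals were recovered from RPKM and GENCODE vM21 exonic lengths (95.1% of genes matched by symbol). Of values under 20 reads, 84.5% to 85.8% were whole within 0.1 reads, and the reads summed to 100.3% to 105.7% of the totals, so reads per gene are approximate.

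The 9 genes, the gene lists, and the tests were chosen with earlier results of these data known. Genes with a deposited RPKM of at least 0.5 in at least 2 libraries of a comparison were kept, and RPKM was then scaled by median of ratios and taken as log2(scaled RPKM + 0.1). All genes were fitted in limma 3.58.1 (R 4.3.3) with an intensity trend. Thresholds were an adjusted p of 0.05 and 2-fold. All 9 genes passed the filter in every comparison. Genes named were the 9, *Ppara*, *Ppard*, *Pparg*, and *Rxra*, up to 4 called genes per list and comparison by size of change, the 3 most alike to *Plin2*, *Angptl4*, and *Pdk4*, and markers beside a result. Exceptions are marked. In the list of PPAR targets, 1 gene is not reported here and is left out of its counts. The minimum was thus applied before scaling, and a gene passed it more easily in WT FAEE-SAP, with scaling factors of 2.02 and 1.94, than in WT saline, with 0.728 and 0.866. Alternatives were no scaling, a trimmed mean of log ratios (TMM), quantile normalization, other minimums, pseudocounts, and thresholds, no trend, all libraries in 1 model, the replicate block, voom on recovered reads, and each library left out, and, chosen after the data were seen, the minimum set on scaled RPKM. The fits were tested on simulated data. All other assays of the study were not analysed here.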

Additional observations from a re-analysis of the deposited data

Results flagged for a closer look

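*Fads2* and *Scd2*, desaturases that insert double bonds into long-chain fatty acids, were called lower in WT FAEE-SAP than in saline, while both cKO FAEE-SAP libraries lay above both cKO saline libraries without passing the test. In cKO the log2 change was 0.80 for *Fads2* (adjusted p = 0.443, limma) and 0.79 for *Scd2* (adjusted p = 0.517, limma), so a rise in cKO was not established. *Fads2* was at 3.53 and 4.23 in WT saline and 1.71 and 0.973 in WT FAEE-SAP, but at 2.998 and 2.25 in cKO saline and 5.01 and 4.09 in cKO FAEE-SAP (scaled RPKM). The interaction was 2.28 on the log2 scale (SE 0.406), with an adjusted p of 0.143 from limma, and did not pass the threshold. *Scd2* was at 3.84 and 3.50 in WT saline and 1.79 and 1.13 in WT FAEE-SAP, and at 2.57 and 3.64 in cKO saline and 6.37 and 4.40 in cKO FAEE-SAP. Its interaction was 2.08 (SE 0.412, adjusted p = 0.154, limma). Without cKO saline replicate 1 the interactions were 2.48 for *Fads2* and 1.83 for *Scd2*. They were compared among the 9 genes and 11 further named genes of the lists. The 11 were named because they were called in these data, so the WT fall of *Fads2* and *Scd2* was selected for. The other desaturases tested in that list are named after their values were seen. In WT and cKO the log2 changes were -0.71 and 0.59 for *Fads1*, and 0.48 and -0.66 for *Scd1*, and none of these passed the test.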

How the results depend on the processing

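Besides the main settings, 13 alternatives, 1 added later, and each library left out in turn were tried. The number of the 9 genes called in WT FAEE-SAP against saline was 1 and became 7 with the values as deposited and 2 with an unadjusted p-value, and it ranged from 0 to 1 with a library left out. In cKO it was 0 and became 1 with an unadjusted p-value. Between genotypes with FAEE-SAP it was 0 and became 6 with the values as deposited and 1 with an unadjusted p-value. For the interaction it was 0 and became 1 with an unadjusted p-value, and with saline it was 0 throughout. The log2 fold change of *Plin2* in WT ranged from 2.34 to 3.11 on scaled values. Same-numbered replicates did not deviate together in every pair (r across genes from -0.319 to 0.399), so the replicate block is given only here. With the replicate block, 1 of the 9 genes was called in WT and 0 in the other comparisons, and 442 of all genes were called in WT in place of 755, 52 in cKO in place of 5, 568 between genotypes with FAEE-SAP in place of 140, and 0 for the interaction in place of 8. Over all alternatives, calls among all genes ranged from 97 to 7270 in WT, 0 to 280 in cKO, 0 to 4427 between genotypes with FAEE-SAP, 0 to 59 with saline, and 0 to 791 for the interaction. Calls in the gene lists in WT ranged over the alternatives from 0 to 9 for oxidation genes called lower, 0 to 17 for lipid droplet genes called higher, 0 to 1 for PPAR targets called lower, 0 to 2 for synthesis genes called lower, and 0 to 6 higher and 0 to 3 lower for uptake genes. Marker calls in WT ranged from 3 to 10 lower for acinar and 0 to 3 lower for islet cells, and from 1 to 10 higher for macrophages, 0 to 6 for adipocytes, and 0 to 2 for duct cells. With 1 library left out, the log2 fold change turned direction, with no call gained or lost, for *Pdk4*, *Cpt1a*, and *Acot2* in WT, for these 3, *Angptl4*, and *Cd36* in cKO, for *Pdk4* and *Cpt1a* between genotypes with FAEE-SAP, for *Plin2*, *Angptl4*, *Pdk4*, and *Ucp2* with saline, and for *Pdk4*, *Cpt1a*, *Acot1*, and *Ucp2* in the interaction. With the minimum set on scaled values, an alternative chosen after the data were seen, 765 of all genes were called in WT, 5 in cKO, 131 between genotypes with FAEE-SAP, 0 with saline, and 6 for the interaction, and the number of the 9 genes called was the same in each comparison. *Acot2* in cKO and *Plin2* with saline were not tested at an RPKM minimum of 2. With 2 libraries a group, intervals are wide, and a missed threshold does not show that values were alike.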
